A study of Mus musculus with 16 samples.

Results

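The cytosolic ribosomal protein genes of mouse quadriceps muscle were described in 8 libraries of muscle in which Nampt was knocked out in skeletal muscle only (KO) and in 8 libraries of wild-type muscle (WT). Members were chosen by gene name, as every symbol of the form Rpl or Rps followed by a number. That number could be followed by an optional paralogue letter (a, x, y or l) and an optional further digit. Rpsa, Rplp0, Rplp1 and Rplp2 were taken as well, and names marked as pseudogenes and the S6 kinases were left out. The rule took 88 of the 45706 genes of the table, 51 of the large and 37 of the small subunit, on 19 chromosomes. By the annotation 83 are protein-coding and 5 (Rps3a2, Rps3a3, Rps12l1, Rps12l2 and Rps4l) are processed pseudogenes. The low-count filter left 85 members among 13792 tested genes, 81 of them protein-coding. Rpl10l, Rpl39l and Rps12l2 did not pass it.

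NAMPT makes nicotinamide mononucleotide, the precursor from which cells salvage NAD, and the series asks what a loss of NAD does to ageing skeletal muscle. Both genotypes are given for quadriceps, and the labels do not give age, sex, strain, the driver of the deletion or the number of animals. Libraries were made from polyadenylated RNA and read as 52-base pairs on a NovaSeq, and all values below come from estimated counts per gene. The p-values therefore measure the spread between libraries, which may be partly technical.

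The ribosome is built from ribosomal RNA and a fixed set of proteins, of which most are present in a single copy per ribosome. Ribosomal protein mRNAs are among the most abundant of any cell, their promoters are mostly of the housekeeping kind, and their mRNAs begin with a tract of pyrimidines through which the mTOR pathway controls their translation. In striated muscle the large subunit protein L3 exists in a pair of versions. Rpl3 is the general gene and Rpl3l is expressed in skeletal muscle and heart, and in mice Rpl3l is known to fall, and Rpl3 to rise, when muscle is overloaded.

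The promoters of 5 members are shown because the level of Rpl3l beside the other members, and the pairs of paralogues, carry most of what follows. They were taken from RefSeq on GRCm38.p6 and are printed 5′ to 3′ on the strand of the gene, with searched motifs in capitals. Rpl3l is shown from 250 bases before to 20 bases after its RefSeq start (chr17:24727576-24727845, plus strand).
Rpl3l: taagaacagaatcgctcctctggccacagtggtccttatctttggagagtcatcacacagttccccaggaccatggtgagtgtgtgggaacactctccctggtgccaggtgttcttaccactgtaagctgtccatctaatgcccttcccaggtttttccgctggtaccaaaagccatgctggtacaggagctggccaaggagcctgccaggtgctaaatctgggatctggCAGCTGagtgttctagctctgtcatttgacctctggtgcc
The other 4 are shown from 80 bases before to 20 bases after the start (18 for Rpl4). They are Rpl4 at chr9:64173307-64173404 (plus strand), Rpl22 at chr4:152325646-152325745 (plus strand), Rps27 at chr3:90213629-90213728 (minus strand) and Rps27l at chr9:66946006-66946105 (plus strand).
Rpl4: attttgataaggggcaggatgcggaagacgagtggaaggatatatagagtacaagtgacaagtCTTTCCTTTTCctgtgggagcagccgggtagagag
Rpl22: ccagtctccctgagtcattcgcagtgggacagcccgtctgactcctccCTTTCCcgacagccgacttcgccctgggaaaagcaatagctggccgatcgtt
Rps27: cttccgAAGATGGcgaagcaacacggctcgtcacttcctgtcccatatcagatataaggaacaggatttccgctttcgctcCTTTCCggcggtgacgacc
Rps27l: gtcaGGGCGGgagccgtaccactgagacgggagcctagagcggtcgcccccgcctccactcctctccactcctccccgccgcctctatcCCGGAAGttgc
The RefSeq starts lay 0 to 127 bases from the start of the transcript used here for length.

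A RefSeq promoter, from 250 bases before to 50 after the start, was matched for 61 of the 85 tested members and set beside 27025 mouse promoters, 1 per gene. The pyrimidine run CTTTCC, read on the coding strand, was in 36.1% of the members' promoters and 14.0% of all promoters. Within 20 bases before to 50 after the start it was in 26.2% of the members and 3.22% of all. The related run CTTTTC was in 19.7% and 11.3% of the 300-base windows. CCGGAAG, the core bound by ETS-family factors, was found on either strand in 39.3% of the members and 9.12% of all. GGGCGG, the core of the Sp1 box, was in 59.0% and 35.9%, and AAGATGG, the core of the YY1 element, in 14.8% and 6.48%. TATAAA was in 9.84% of the members and 14.2% of all over 300 bases, but in 6.56% of the members, which are 4 genes, and 2.03% of all within 20 bases before to 50 after the start. CAGCTG, an E-box of the kind bound by the myogenic factors, was in 4.92% of the members, which are 3 genes, and 16.1% of all. Of these 7 motifs CAGCTG was the 1 that the Rpl3l window held. The sequences above show this as a single capital stretch near the start of Rpl3l. Rpl4, Rpl22 and Rps27 each have a CTTTCC, which lies before the RefSeq start in Rpl4 and Rpl22 and after it in Rps27. Rps27l has CCGGAAG and GGGCGG. No RefSeq promoter was matched for Rpl3. A match here describes letters in a window and does not show binding.

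Nampt was first read as a check of the labels. It had a lowest, median and highest level of 60.4, 74.7 and 88.7 CPM (counts scaled to a common library size) in KO, against 125.5, 141.1 and 161.1 CPM in WT, so the genotypes did not overlap. Its log2 fold change was -0.95 (standard error 0.07, adjusted p = 9.68e-07, edgeR quasi-likelihood test). Counts per gene do not show which part of Nampt was deleted, nor in which cells the remaining RNA was made. Markers of muscle fibres (Acta1, Ckm, Myh4 and 4 others) summed to 135150 to 162460 CPM in KO, against 135420 to 169910 CPM in WT. Lymphocyte markers summed to at most 0.664 CPM in any library. Library totals ran from 16065394 to 51881258 estimated counts.

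Ribosomal protein mRNAs stood at closely similar levels in KO and WT muscle. Of the 85 tested members 0 passed an adjusted p of 0.05 over all genes with edgeR, DESeq2 or limma-voom, where edgeR called 6 of the 13792 tested genes, or 0.0435%. In each direction that call was made for 0.0218% of all genes tested. Before adjustment 4 members, or 4.71%, had a p under 0.05, as did 9.57% of all tested genes. All 4 were lower in KO, where 5.55% of all tested genes were lower at that p, and 0 members were higher, against 4.02%. In 0 members did the KO libraries lie apart from the WT libraries, against 0.123% of all tested genes. The lowest adjusted p of any member was 0.307.

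The intervals were narrow as well as centred near 0. The 95% interval of the fold change lay inside a 1.5-fold change either way for 83 of the 85 members (97.6%), against 86.2% of all tested genes. It lay inside a 1.25-fold change for 80 of the 85 (94.1%), against 62.6%. Both background shares were higher at high level. Among the 1041 tested genes with a mean of 100 CPM or more, 96.3% lay inside 1.5-fold and 88.4% inside 1.25-fold. All 45 members in that range lay inside both. The 5 members with wider intervals were Rpl22l1 and the pseudogene-annotated Rps3a2, Rps3a3, Rps12l1 and Rps4l, all of low level. The log2 fold changes of the members ran from -0.32, for Rps3a3, to 0.12, for Rps12l1, and over the 81 protein-coding members they ran from -0.14 to 0.08. In bulk RNA a lower level in each cell and fewer cells of a type cannot be told apart.

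**Figure D1:**
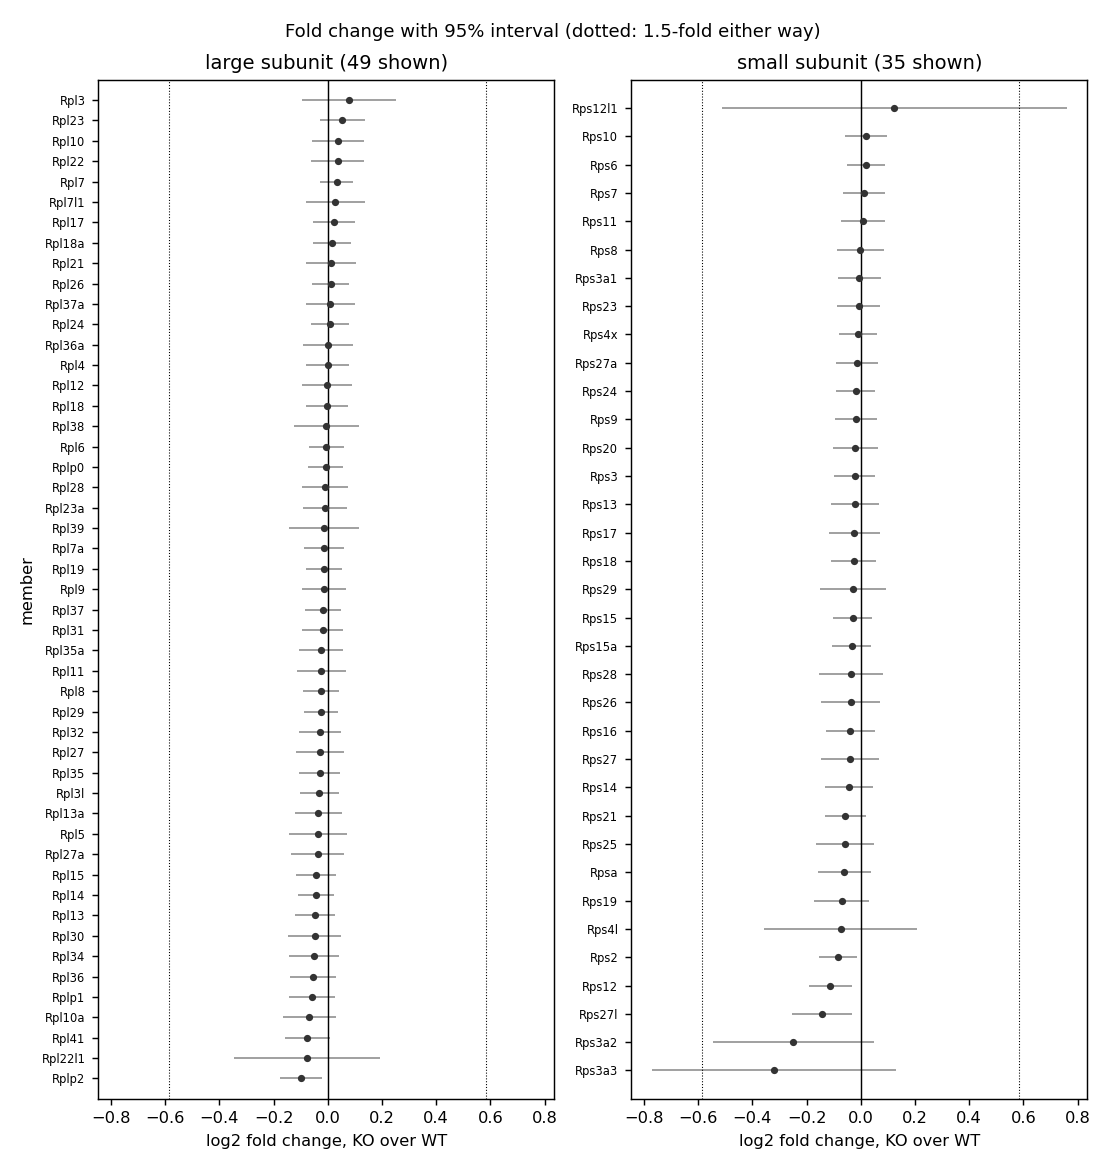
Log2 fold change (KO over WT) of 84 of the 85 tested members with its 95% interval, large subunit on the left and small subunit on the right; dotted lines mark 1.5-fold either way. Only the intervals of Rps12l1 and Rps3a3 cross a dotted line.

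The median member had a log2 fold change of -0.02, where the median over all tested genes was 0.00. Below 0 there were 67 of the 85 members (78.8%), against 48.2% of all tested genes. Genes of high level leaned the same way. Among the 1041 tested genes with a mean of 100 CPM or more, 70% were below 0 with a median of -0.04, and 18% had an unadjusted p under 0.05. The 45 members in that range had 35 below 0 (77.8%), a median of -0.02, and 2 at that p (4.44%). In the large subunit 36 of 49 members were below 0 with a median of -0.01, and in the small subunit 31 of 36 with a median of -0.03. The lean also depended on single libraries. The members' median was -0.01 without KO 4, without KO 8, without WT 3 or without WT 4, and 54 members were below 0 without WT 3.

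The summed level of the members was 9858 ± 252 CPM in KO and 10010 ± 370.3 CPM in WT (SD, n = 8 each), which puts KO at 98.5% of WT. In KO the lowest, median and highest sums were 9428, 9918 and 10146 CPM, against 9657, 9812 and 10641 CPM in WT. All KO libraries but KO 4 and KO 8 lay within the range of WT, and the median of KO was the higher of the medians. The difference of -152 CPM was smaller than the SD of either genotype, and it was -57.7 CPM without WT 3, -84.2 CPM without WT 4 and -91.4 CPM without KO 4. The large subunit summed to 98.9% of WT and the small subunit to 97.7%. As a share of all counts the members took 0.990 ± 0.0266% in KO and 0.997 ± 0.0641% in WT.

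**Figure D2:**
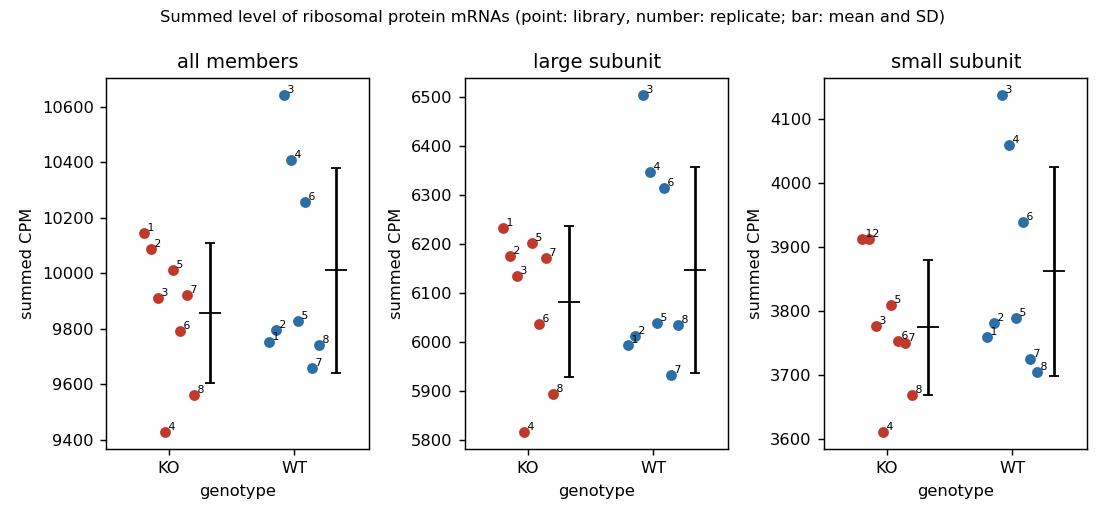
Summed CPM of the members in each library (points numbered by replicate, axes not starting at 0), with the mean and SD of 8 libraries per genotype, KO left and WT right, for all members and by subunit. KO 4 is the lowest point and WT 3 the highest in all 3 panels.

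A few libraries set the extremes for many members at once. KO 4 was the lowest library for 30 of the 85 members, followed by WT 7 for 13, whereas WT 3 was the highest for 41 and WT 4 for 17. In KO 4 7 members lay above their own mean over all libraries, and in WT 3 81 members did. KO 4 held 25132668 counts, and WT 3, with 51881258, was the deepest library. The RNA integrity numbers were 8.8 for KO 4 and 8.7 for WT 3, in a series that ran from 8.2 to 8.8. The part of depth and RNA quality in these extremes was not tested. Between libraries the members varied little. The median SD of log2(CPM + 0.5) over the 81 members of 10 CPM or more was 0.0629 in KO and 0.0725 in WT. Over all 6944 tested genes of 10 CPM or more it was 0.107 in KO and 0.109 in WT. Those genes were not matched further to the members in level.

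**Figure D3:**
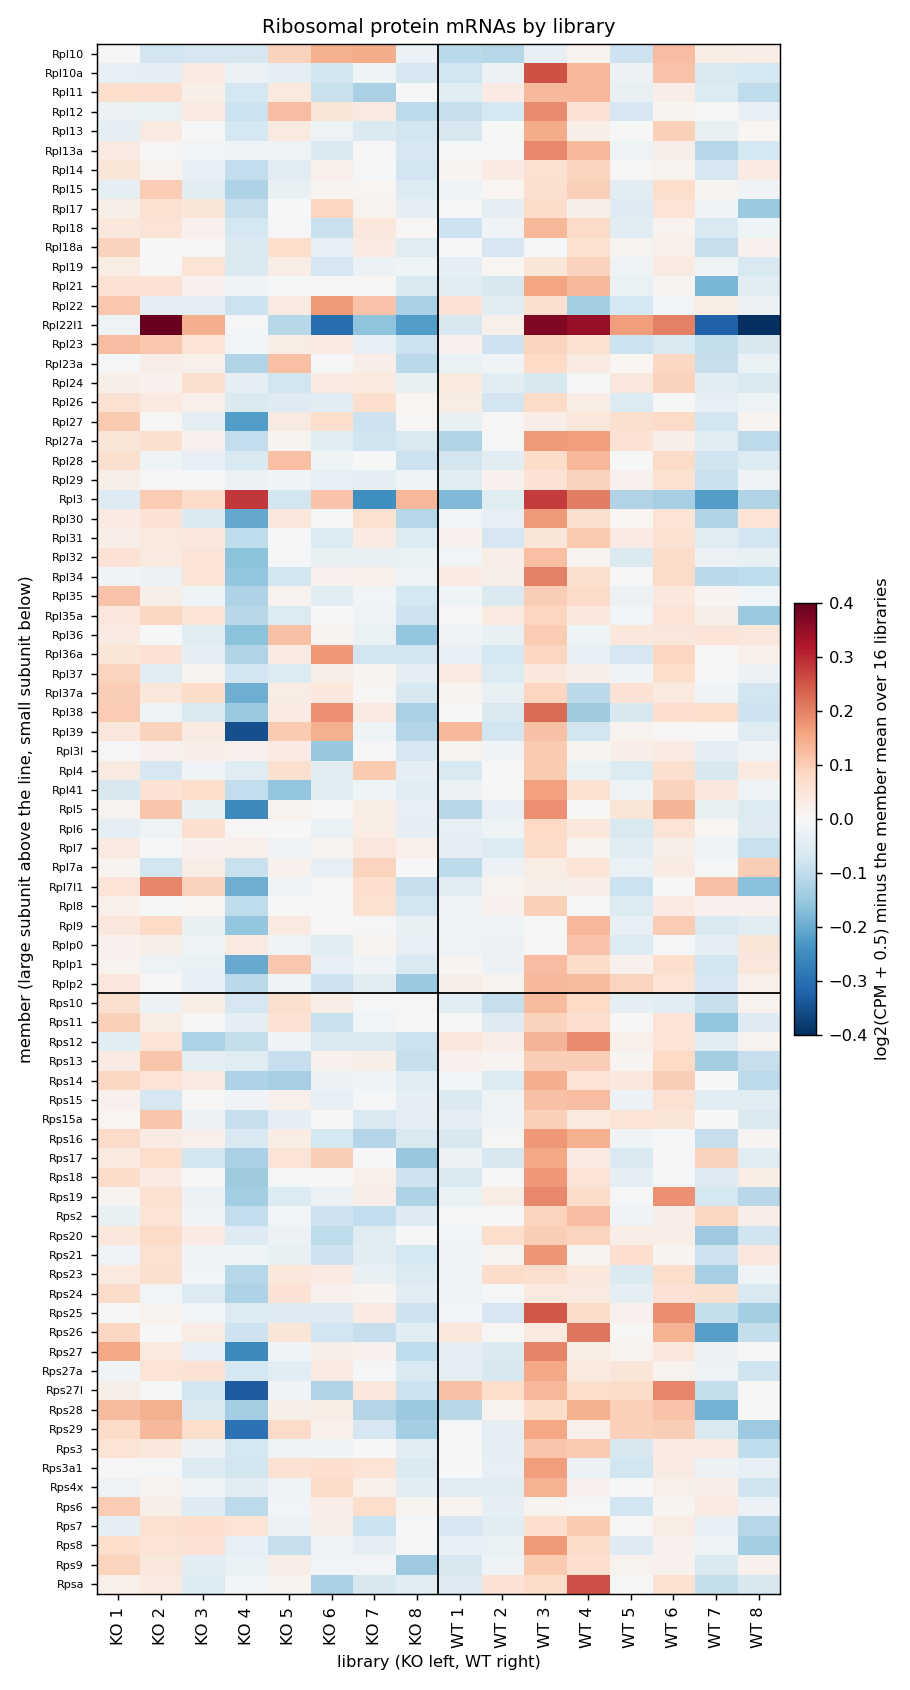
Log2(CPM + 0.5) minus the member's mean over 16 libraries, for 80 of the 81 members with a mean of 10 CPM or more (rows, large subunit above the line) in each library (columns, KO left of the line). WT 3 is high and KO 4 low across most rows, and the Rpl22l1 and Rpl3 rows vary most.

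By count, the leading members included genes of the exit tunnel, the factor-binding stalk and the muscle paralogue. Rpl4, whose protein lines the exit tunnel, averaged 403 ± 17.3 CPM in KO and 404 ± 18.1 CPM in WT (SD, n = 8 each), with a log2 fold change of 0.00 (95% interval -0.08 to 0.08). Rplp0, the base of the stalk that recruits translation factors, averaged 398 ± 8.25 CPM in KO and 400.2 ± 15.5 CPM in WT, with a log2 fold change of -0.01 (-0.07 to 0.06). The stalk partner Rplp1 averaged 219 ± 12.9 CPM in KO and 228 ± 9.79 CPM in WT, with a log2 fold change of -0.06 (-0.14 to 0.03). Rpsa, a small subunit protein also known as the laminin receptor precursor, averaged 281 ± 10.6 CPM in KO and 293 ± 23.7 CPM in WT, with a log2 fold change of -0.06 (-0.16 to 0.04). In each of these genes the libraries of KO and WT overlapped.

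Per transcript length, in TPM computed from the same counts with 1 annotated transcript per gene, the members formed a plateau with a short tail. The 76 protein-coding members other than Rpl3 and the 4 tested paralogues had a median of 262 TPM, with quartiles at 203 and 320 TPM. The median was 249.6 TPM for the 45 of the large subunit and 271 TPM for the 31 of the small subunit. Rplp1 led at 771 ± 34.8 TPM in KO and 794 ± 58.1 TPM in WT, and Rps2 followed at 661 ± 17.2 TPM in KO and 691 ± 44.3 TPM in WT. Rps15a and Rps20 were low on this scale, at 20.3 and 54.0 TPM over all libraries, but the transcripts chosen for them are long (5130 and 3706 bases), so their place is uncertain.

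**Figure D4:**
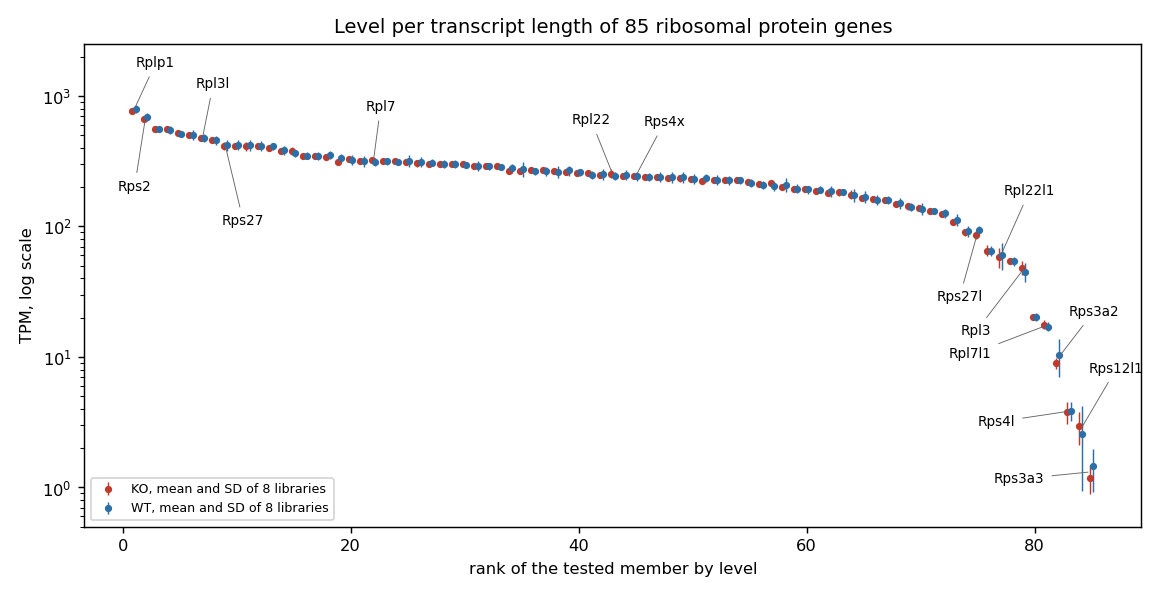
Level per transcript length (TPM, log axis) of the 85 tested members in order of their mean, with mean and SD of 8 libraries, KO (red) left of WT (blue) at each rank. Rpl3l is 7th and Rpl3 79th, and members annotated as pseudogenes are at the right end.

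Rpl3l was the dominant version of the L3 gene in every library of both genotypes. It had a lowest, median and highest level of 335, 375 and 381 CPM in KO, against 362, 376 and 400.1 CPM in WT. The ranges overlapped, with KO 6 the lowest and WT 3 the highest, and 4 of 8 KO libraries lay below the WT mean. Its log2 fold change was -0.03 (standard error 0.03, 95% interval -0.10 to 0.04, adjusted p = 0.827, edgeR). Rpl3l ranked 4th of the tested members by CPM and 7th by TPM, at 472 ± 19.8 TPM in KO and 477 ± 31.0 TPM in WT. It is a gene of the plus strand at chr17:24727820-24736143 of GRCm38, and 0% of the 52-base windows of its transcript occurred in another annotated gene, so a 52-base stretch of it identifies the gene.

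Rpl3, whose protein reaches towards the peptidyl transferase centre, was far less abundant. It had a lowest, median and highest level of 30.04, 38.0 and 43.6 CPM in KO, against 30.5, 32.9 and 43.4 CPM in WT. The ranges nearly coincided, and 5 of the KO libraries exceeded the mean of WT. Its log2 fold change was 0.08 (standard error 0.08, 95% interval -0.09 to 0.25, adjusted p = 0.813, edgeR). Rpl3 lies on the minus strand at chr15:80077791-80091868, and 85.4% of its 52-base windows occurred in 26 other genes, 23 of them pseudogenes, whose counts came to 2.33% of those of Rpl3. Its value is therefore less certain than that of Rpl3l.

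The ratio of Rpl3l to Rpl3, which needs no scaling to depth, had a lowest, median and highest value of 8.64, 9.93 and 12.4 in KO, against 9.09, 11.4 and 11.9 in WT. The highest single value was in KO 7 and the lowest in KO 4, so the WT range lay within that of KO. The difference in mean log2 ratio was -0.12 (exact two-sided permutation p = 0.199, adjusted p = 0.497 over 5 pairs, n = 8 each). With the pseudogene copies of Rpl3 counted as Rpl3, an alternative chosen after seeing the data, the ratio ran from 8.39 to 12.1 in KO and from 8.89 to 11.7 in WT. Per length, Rpl3l made up 90.7 ± 1.07% of both genes together in KO and 91.4 ± 0.902% in WT. Their sum was 520.5 ± 21.4 TPM in KO and 522 ± 37.9 TPM in WT. In the same libraries the median of the 76 other protein-coding members was 261 ± 6.91 TPM in KO and 260.4 ± 18.8 TPM in WT. The summed L3 level was above that median in all 16 libraries.

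Rpl3 was highest in KO 4, WT 3 and WT 4, at 43.6, 43.4 and 41.3 CPM. These libraries were also the highest for Myog, the myogenic regulator myogenin, which had 4.96 CPM in KO 4, 6.30 CPM in WT 3 and 10.2 CPM in WT 4, and between 1.95 and 3.90 CPM in the other 13. Myh3, the embryonic myosin heavy chain, stood at 28.9 CPM in KO 4 and at 100.1 CPM in WT 4, but at 6.498 CPM in WT 3. Myog and Myh3 were named after their values were seen, and the part of muscle regeneration in the level of Rpl3 was not tested.

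**Figure D5:**
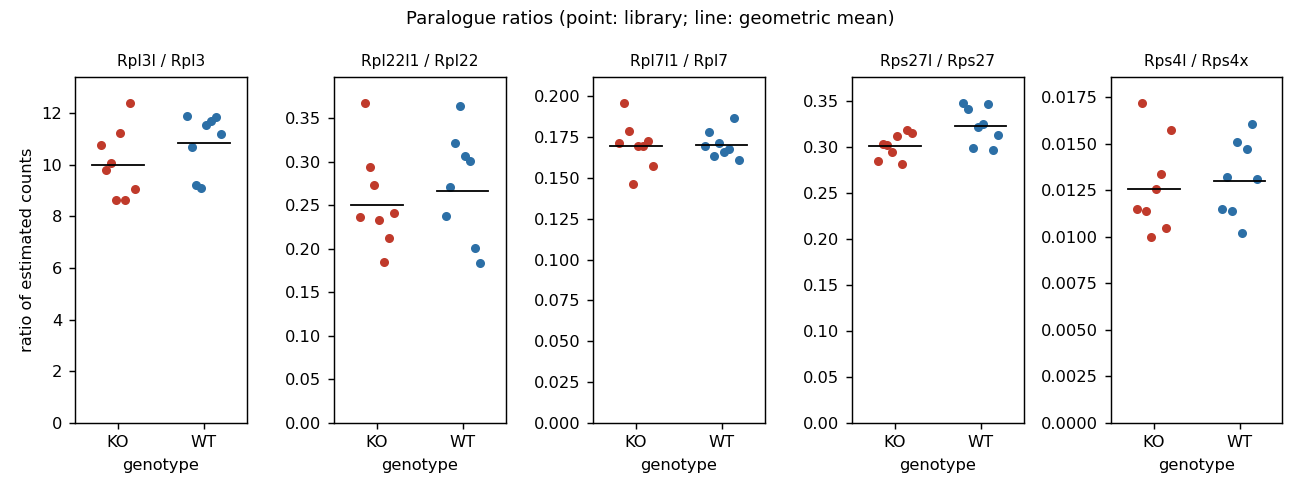
Ratio of estimated counts for 5 paralogue pairs (points are libraries, KO left and WT right, lines are geometric means, axes start at 0). The Rpl3l to Rpl3 ratio lies between 8.64 and 12.4 in all libraries, and the Rps27l to Rps27 ratio is the 1 whose KO points all lie below the WT mean.

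Among the paralogue pairs compared here, all but Rpl3l and Rpl3 were led by the general gene. Rpl36al, which the name rule does not take, was not compared as a pair with Rpl36a. Its mean over all libraries was the higher, 56.9 CPM beside 39.0 CPM for Rpl36a. Rps27l, a small subunit paralogue known as a p53 target, had a ratio to Rps27 with lowest, median and highest values of 0.282, 0.303 and 0.319 in KO, against 0.296, 0.324 and 0.348 in WT. All 8 KO libraries lay below the WT mean, although the ranges overlapped. The difference in mean log2 ratio was -0.10 (exact two-sided permutation p = 0.0253), which did not pass over the 5 pairs (adjusted p = 0.127). The coding sequences of this pair are 76.2% identical and share 0 windows of 52 bases. Of the windows of Rps27, 98.6% occur in other genes.

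Rpl22l1 is the paralogue of Rpl22, and in mice a loss of Rpl22 is known to raise it. Its ratio to Rpl22 ran from 0.185 to 0.368 in KO, with a median of 0.239, and from 0.183 to 0.364 in WT, with a median of 0.285. The ranges nearly coincided, with a difference of -0.09 in mean log2 ratio (exact two-sided permutation p = 0.584, adjusted p = 0.866). Rpl7l1 stood to Rpl7 at 0.146 to 0.196 in KO and 0.161 to 0.187 in WT (difference -0.01, exact permutation p = 0.922). Rps4l, annotated as a transcribed pseudogene, stood to the X-linked Rps4x at 0.0100 to 0.0172 in KO and 0.0102 to 0.0161 in WT (difference -0.05, exact permutation p = 0.692). Rpl10l and Rpl39l, known from the testis, were at the floor. Rpl10l had 0 counts in all 16 libraries, and Rpl39l had at most 0.182 CPM in KO and 0.300 CPM in WT, so neither pair was tested.

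The members with the lowest p were all lower in KO and all by small steps. Rps12, a small subunit protein that in fruit flies takes part in competition between cells, had a lowest, median and highest level of 83.8, 87.8 and 94.9 CPM in KO, against 89.0, 93.8 and 104 CPM in WT. All 8 KO libraries lay below the WT mean, and KO 2 and KO 5 lay inside the range of WT. The log2 fold change of Rps12 was -0.11 (standard error 0.04, unadjusted p = 0.00727, adjusted p = 0.307, edgeR). Rps12 shares 90.1% of its windows with other genes.

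Rps27l itself had a lowest, median and highest level of 20.2, 24.8 and 26.4 CPM in KO, against 23.9, 26.9 and 29.4 CPM in WT. All 8 KO libraries lay below the WT mean, with KO 4 well under the rest. Its log2 fold change was -0.14 (standard error 0.05, adjusted p = 0.378, edgeR). Rplp2, the second of the acidic stalk proteins, had 113, 122 and 129 CPM in KO, against 119.8, 129 and 137 CPM in WT, again with all 8 KO libraries below the WT mean. Its log2 fold change was -0.10 (standard error 0.04, adjusted p = 0.385, edgeR). Rps2, a small subunit protein near the entry of the mRNA channel, had 359.7, 374 and 399.7 CPM in KO, against 381, 392 and 419 CPM in WT, with 7 of 8 KO libraries below the WT mean. Its log2 fold change was -0.08 (standard error 0.03, adjusted p = 0.430, edgeR). In each of these 4 genes the ranges of KO and WT overlapped, and 0 of the 4 passed the test over all genes. Rpl41, next in order of p, had a log2 fold change of -0.08.

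On the other side the lowest p among the members belonged to Rpl23, with a log2 fold change of 0.05 (adjusted p = 0.712, edgeR). Rpl36al, outside the name rule, had a lower p and was at 0.09 (95% interval -0.02 to 0.20, adjusted p = 0.605, edgeR). Rpl7 had 151, 154 and 157 CPM as its lowest, median and highest level in KO, against 143, 149 and 161 CPM in WT. All 8 KO libraries lay just above the WT mean of 150.4 CPM, but within the range of WT. The log2 fold change of Rpl7 was 0.03 (95% interval -0.03 to 0.10, adjusted p = 0.776, edgeR). Rpl10, Rpl22 and Rpl17 followed at 0.04, 0.04 and 0.02.

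Other members known for roles outside the ribosome were picked for those roles with their values already known, beside Rps12 and Rps27l above, whose 95% intervals lay below 0 (-0.19 to -0.03 and -0.25 to -0.03). Rpl5 and Rpl11, which bind MDM2 when ribosome assembly is disturbed, had log2 fold changes of -0.04 and -0.02, with intervals of -0.14 to 0.07 and -0.11 to 0.07. Rps6, the substrate of the S6 kinases, was at 0.02 (-0.05 to 0.09). Rps19, the gene most often mutated in the human disease Diamond-Blackfan anaemia, was at -0.07 (-0.17 to 0.03), and Rps14 was at -0.04 (-0.13 to 0.05). Rpl38, which in mouse embryos is needed to translate certain Hox mRNAs, was at -0.01 (-0.13 to 0.12). The 4 X-linked members, Rpl10, Rps4x, Rpl36a and Rpl39, ran from -0.01 to 0.04.

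The members that varied most between WT libraries among those of 10 CPM or more were Rpl22l1, Rpl3 and Rps25, with SDs of log2(CPM + 0.5) of 0.313, 0.183 and 0.135. Rpl22l1 had a lowest, median and highest level of 14.0, 16.6 and 24.1 CPM in KO, against 12.1, 18.6 and 22.7 CPM in WT. Its highest library was KO 2 and its lowest WT 8, so the ranges of the genotypes overlapped. Of the 8 KO libraries, 6 lay below the WT mean. The log2 fold change of Rpl22l1 was -0.08 (95% interval -0.35 to 0.19, adjusted p = 0.900, edgeR). Rps25 averaged 87.4 ± 2.46 CPM in KO and 91.0 ± 8.75 CPM in WT, with WT 3 the highest.

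Many members share sequence with processed pseudogenes, to which reads can be assigned instead. The share of 52-base windows found in another gene had a median of 56.5% over the tested members, over 50% in 50 of them and under 10% in 7. The median log2 fold change was -0.02 in the 7 members under 10%, -0.03 in the 28 between 10 and 50% and -0.02 in the 50 over 50%. Rows named as pseudogenes of a member, 257 rows for 58 parents, held between 0.979% and 1.43% of the members' counts per library. Counted by shared windows instead of by name, pseudogenes came to 25.4% of the counts of Rpl39, 16.4% of Rpl7l1 and 10.0% of Rpl23. Among the other members named by the rule given below, the highest share was 3.34%, for Rps2. The members that are annotated as pseudogenes were low and are uncertain for the same reason. Rps3a2, which shares 89.9% of its windows, mostly with Rps3a1, averaged 4.02 ± 0.388 CPM in KO and 4.70 ± 1.33 CPM in WT, with a log2 fold change of -0.25 (95% interval -0.55 to 0.05). Rps3a3 averaged 0.533 ± 0.128 CPM in KO and 0.661 ± 0.221 CPM in WT, and Rps12l1 averaged 0.666 ± 0.184 CPM in KO and 0.580 ± 0.351 CPM in WT. Rps12l1 shares 100% of its windows with other genes, among them Rps12, and Rps12l2 had at most 0.0729 CPM in KO and 0.0458 CPM in WT.

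Other genes of the translation machinery gave no call with edgeR, DESeq2 or limma-voom, though DESeq2 gave no adjusted p for some of them. A list of mRNAs with a pyrimidine tract outside the name rule had 20 tested genes. Of these 0 were called and 1 had a p under 0.05 before adjustment, with each of the 3 tools. The edgeR count was 5% of the list, beside 9.57% over all genes, and was Eef1g, which encodes a subunit of the elongation factor 1 complex, with a log2 fold change of -0.11. Of these 20 genes 11 (55%) were below 0, against 48.2% of all tested genes, with a median of -0.01. Eef2, the elongation factor that moves the ribosome along the mRNA, averaged 1372 ± 121 CPM in KO and 1301 ± 84.2 CPM in WT, with a log2 fold change of 0.08. Tpt1, which encodes the translationally controlled tumour protein, averaged 1204 ± 65.9 CPM in KO and 1268 ± 94.9 CPM in WT, with a log2 fold change of -0.08. Fau, which encodes a ribosomal protein fused to a ubiquitin-like sequence, was at -0.06.

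Of 50 ribosome biogenesis genes 49 were tested, with 0 called and 4 at an unadjusted p under 0.05 (8.16%, beside 9.57% over all genes). At that p limma-voom counted 4 and DESeq2 counted 3, and DESeq2 gave no adjusted p for 5. Rrp12 (-0.16), Tcof1 (-0.13) and Nhp2 (-0.17), which act in subunit export, ribosomal DNA transcription and RNA pseudouridylation, were the lower ones, and Riok1 (0.16), a kinase of small subunit maturation, the higher one. The median was 0.02, and 19 of the 49 were below 0. The nucleolar proteins Ncl, with 163 ± 6.18 CPM in KO, against 159.7 ± 6.49 CPM in WT, and Npm1, which is in both lists, with 67.8 ± 4.37 CPM in KO, against 64.1 ± 3.74 CPM in WT, were at 0.03 and 0.08. Of 9 snoRNA host genes 6 were tested, with 0 at an unadjusted p under 0.05 with all 3 tools (5 had no adjusted p from DESeq2), and Gas5 and Snhg6 were at -0.01 and -0.09.

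Markers of other cell types were read beside these values. Endothelial markers summed to 224 to 261 CPM in KO, against 204 to 233 CPM in WT, with 5 of 6 above 0 and 2 of 6 at an unadjusted p under 0.05, where 9.57% of all tested genes had such a p. Pericyte and smooth muscle markers summed to 361 to 429 CPM in KO, against 346 to 384 CPM in WT, with 6 of 6 above 0 and 4 of 6 at that p. Macrophage markers summed to 79.9 to 184.5 CPM in KO, against 79.8 to 185 CPM in WT, with 7 of 7 above 0 and 0 of 7 at that p. Over all tested genes 51.8% were above 0. Satellite cell markers had 4 of 4 tested above 0, and 1 of them, Pax7, had an unadjusted p under 0.05. Above 0 were 4 of 6 fibro-adipogenic, 3 of 5 adipocyte, 5 of 5 red blood cell and 4 of 7 muscle fibre markers. Each of those lists had 0 at that p. KO 1, 3, 5 and 8 had higher levels of RNAs without a poly(A) tail than all other libraries, with a mean log2 CPM over 12 such RNAs of 3.90 to 4.28, against at most 3.79 elsewhere. Without those 4 libraries the members still gave 0 called genes, with 2 at an unadjusted p under 0.05 (where 8.77% of all genes had such a p in the same fit) and a median log2 fold change of -0.03. The part of vessel cells in the members' levels was not tested.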

How the data were processed

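RNA of quadriceps was isolated with Trizol and an RNeasy kit, and its polyadenylated part sequenced from Universal Plus mRNA-seq libraries, per the labels' protocols. The authors deposited Salmon's estimated counts, summed per gene and not scaled to depth. The tools were bcl2fastq 4.0.3, STAR and Salmon and the genome build was GRCm38, per the submitters' processing notes. The strand setting, the annotation release and the STAR and Salmon versions are not given in the sources here. Table columns matching no library numbered 0. The 11.1% of values that were not whole were rounded to whole numbers.

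Genotypes were taken from the labels. Libraries of a genotype were compared by the chi-square per degree of freedom over genes with at least 20 counts. It was at lowest 8.09 in KO and 9.42 in WT, so no library was another of its genotype read again. Whether libraries came from the same animal cannot be told from it. Within KO 1, 3, 5 and 8 it ran from 8.09 to 21.6, and within KO 2, 4, 6 and 7 from 20.4 to 30.8. Between these sets of KO libraries it ran from 44.0 to 78.9. KO and WT were compared with edgeR 4.0.16 (R 4.3.3), by its quasi-likelihood F test with TMM scaling, the default low-count filter, no covariate and Benjamini-Hochberg adjustment over all tested genes, at a threshold of 0.05. CPM are TMM-scaled. TPM used 1 annotated transcript per gene (GENCODE vM21), without effective lengths, for 45143 of the 45706 genes. Alternatives used DESeq2 1.42.0, limma 3.58.1, other scalings, filters and covariates. Paralogue ratios used log2 of counts plus 0.5 and an exact two-sided permutation test over 12870 assignments.

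The members and lists were chosen with earlier results of these data known. Named were Rpl3l, Rpl3, the 6 members with the lowest p in each direction, the 6 of highest CPM, the paralogue pairs, the 3 most variable, and for each other list the 2 of highest CPM. Genes named outside this rule were chosen after their values were seen, and 1 gene that it takes is not reported here.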

Additional observations from a re-analysis of the deposited data

Results flagged for a closer look

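The levels of the named members were examined in 52 groups of 8 libraries for a single library standing far from the rest, and 4 were found, where chance gives about 1 in 20 groups. Rps27l was lowest in KO 4, at 20.2 CPM with the next KO library at 23.5 CPM. Rpsa was highest in WT 4, at 342 CPM with the next WT library at 302 CPM. Rps27 was highest in WT 3, at 94.3 CPM with the next at 84.8 CPM. Rps4x was highest in WT 3, at 148.7 CPM with the next at 137 CPM. The causes were not tested.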

How the results depend on the processing

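The count of members called was 0 in all 12 alternatives and with each library left out. Over all genes the 6 called became 2 with DESeq2 size factors, with a covariate of RNA without a poly(A) tail, without KO libraries 1, 3, 5 and 8 and with the replicate block, 3 with no low-count filter and 102 with DESeq2. It ran from 2 to 8 with 1 library left out, and the cause was not tested. DESeq2 gave no adjusted p for 4 members, and its lowest was 0.0835, for Rps12. The median log2 fold change of the members lay between -0.03 and -0.02 over the alternatives and between -0.03 and -0.01 with 1 library left out. The difference in their sum lay between -204 and -101 CPM over the alternatives and between -203 and -57.7 CPM with 1 library left out. Rpl3l lay between -0.04 and -0.02 over the alternatives and between -0.04 and -0.01 with 1 library left out. The Rpl3l to Rpl3 difference lay between -0.15 and -0.12 over the alternatives and between -0.16 and -0.09 with 1 library left out. Its exact permutation p lay between 0.0696 and 0.338 with 1 library left out.

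Fold changes next to 0 turned sign. Rpl4 became 0.0064 with upper-quartile scaling, 0.000496 with TMM from genes outside the members, 0.00061 with a filter of 1 CPM and 0.0032 with the RIN covariate. Rplp0 became 7.7e-06 with upper-quartile scaling and 0.00085 without KO libraries 1, 3, 5 and 8, and Rps4x became 0.014 with the poly(A) covariate and 0.011 without those 4. With 1 library left out, Rpl4 ran from -0.016 to 0.015, Rpl39 from -0.036 to 0.032, Rplp0 from -0.016 to 0.011 and Rps4x from -0.022 to 0.010. The causes were not tested.

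Same-numbered libraries deviated together with correlations between -0.0981 and 0.237, over 0.1 in 3 of 8 pairs, and 2 of 8 KO libraries correlated best with their own number, so the numbers were not used as pairs. The replicate block gave 0 called members, 3 at an unadjusted p under 0.05, and an exact sign-flip permutation p of 0.125 for the Rpl3l to Rpl3 ratio. Limits are the unknown number of animals, reads shared with pseudogenes, and levels per length that rest on 1 transcript each. At members under 5 CPM the intervals reach past 1.5-fold for Rps3a3 and Rps12l1.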
